A study of Mus musculus with 16 samples.

Results

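The comparison described here sets gastrocnemius muscle of Galgt2 transgenic mdx mice against that of mdx mice. It rests on the 2 arrays of each group in the first of 3 array sets, chosen by their titles, so 4 of the 16 arrays of the series. Both groups carry the mdx defect, a mutation of the X-linked dystrophin gene Dmd that leaves muscle without dystrophin. One group also carries a germline Galgt2 transgene, whose promoter is not given in the sources used here. Per the labels, all these mice were males aged 2 months. The mdx mice were C57BL/10J and the transgenic mdx mice C57BL/10J x C57BL/6J, so that strain background and transgene cannot be told apart in the comparison. The same array set holds wild-type muscle and Galgt2 transgenic muscle with normal dystrophin, both C57BL/6J, with 2 arrays each. A second set holds mdx muscle (C57BL/10J) injected with an adeno-associated virus carrying Galgt2 (AAV-Galgt2) and contralateral mdx muscle injected with phosphate-buffered saline (PBS), also 2 arrays each. Those AAV-Galgt2 and PBS muscles therefore come from the same mice, but the labels do not say which arrays share a mouse. The labels do not say whether replicate arrays come from separate mice, so p-values measure the spread between these samples, which may be technical.

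Galgt2, listed under its current symbol B4galnt2, encodes a glycosyltransferase that adds N-acetylgalactosamine to sialylated glycans and makes the CT carbohydrate antigen. In adult muscle this glycan is normally concentrated at the neuromuscular junction, where it is carried by alpha-dystroglycan, the laminin receptor of the dystrophin-associated complex. In mdx muscle, fibres without dystrophin undergo cycles of necrosis and regeneration, with macrophage infiltration and fibrosis. The comparison asks how the muscle transcriptome differs when a dystrophic mouse also overexpresses this enzyme.

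Each array was hybridised with cDNA amplified from 25 ng of total RNA. The deposited values are intensities per probe set, one value for each gene's brightest probe set was used, and 18194 genes were compared on the log2 scale. Median intensity lay between 60.0 and 63.9 on the 4 arrays, and the lower quartile between 16.99 and 18.4, so intensities of about 10 lie near the low end of the scale and folds that start from them are less certain. Replicate arrays differed by a log2 SD over genes of 0.607 in mdx, the largest of the muscle groups, and of 0.476 in transgenic mdx. On transgenic mdx 2 the 3' control probes exceeded the 5' ones by 1.23 log2 units for Gapdh and 2.05 for actin, against 0.18 to 0.48 and 0.84 to 1.46 on the other 7 arrays of the set. Summed intensity of 10 skeletal muscle markers was 120180 and 122280 in mdx and 113240 and 114820 in transgenic mdx. Within that list Ckm alone passed the test, as lower.

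B4galnt2 itself was read at 14.6 and 219.5 in mdx and at 9979 and 10380 in transgenic mdx. The groups did not overlap, and mdx 2 stood above the 24.5 and 30.6 of wild-type muscle. The log2 difference was 7.49 ± 0.91 (SE, n = 2 arrays a group), 180-fold, with adjusted p = 0.0018. Of its 4 probe sets, 1 carried this difference, and the other 3 stayed between 8.12 and 25.2 on the 4 arrays, with differences between -0.03 and 0.26. Transgenic muscle with normal dystrophin reached 9241 and 10190. Dmd, mutated in both groups, was read at 367.5 and 281 in mdx and at 928 and 938 in transgenic mdx, a log2 difference of 1.54 ± 0.20 with adjusted p = 0.00305. Both transgenic mdx arrays lay above both mdx arrays and below the 2257 and 2293 of wild type. A second Dmd probe set rose by 1.56, whereas the remaining 2 gave -0.07 and 0.72 and did not pass.

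Across all genes, 1107 of 18194 (6.08%) differed at an adjusted p below 0.05 by limma with Benjamini-Hochberg adjustment, and are referred to as called. Of these, 723 (3.97%) were higher and 384 (2.11%) lower in transgenic mdx, and 946 differed by at least 2-fold. These shares are the background for the counts of called list members below. Few calls in a list are not read as a result about that list. All 1107 had non-overlapping groups, a condition that 21.8% of all genes met as higher and 22.3% as lower. The median log2 difference of all genes was -0.01. A total of 204 calls, 160 higher and 44 lower, were kept in each of the 12 fits that left out 1 muscle array. The number called was 537 without mdx 2, 311 without transgenic mdx 2 and 692 without either AAV-Galgt2 array, which enters through the shared estimate of spread.

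**Figure D1:**
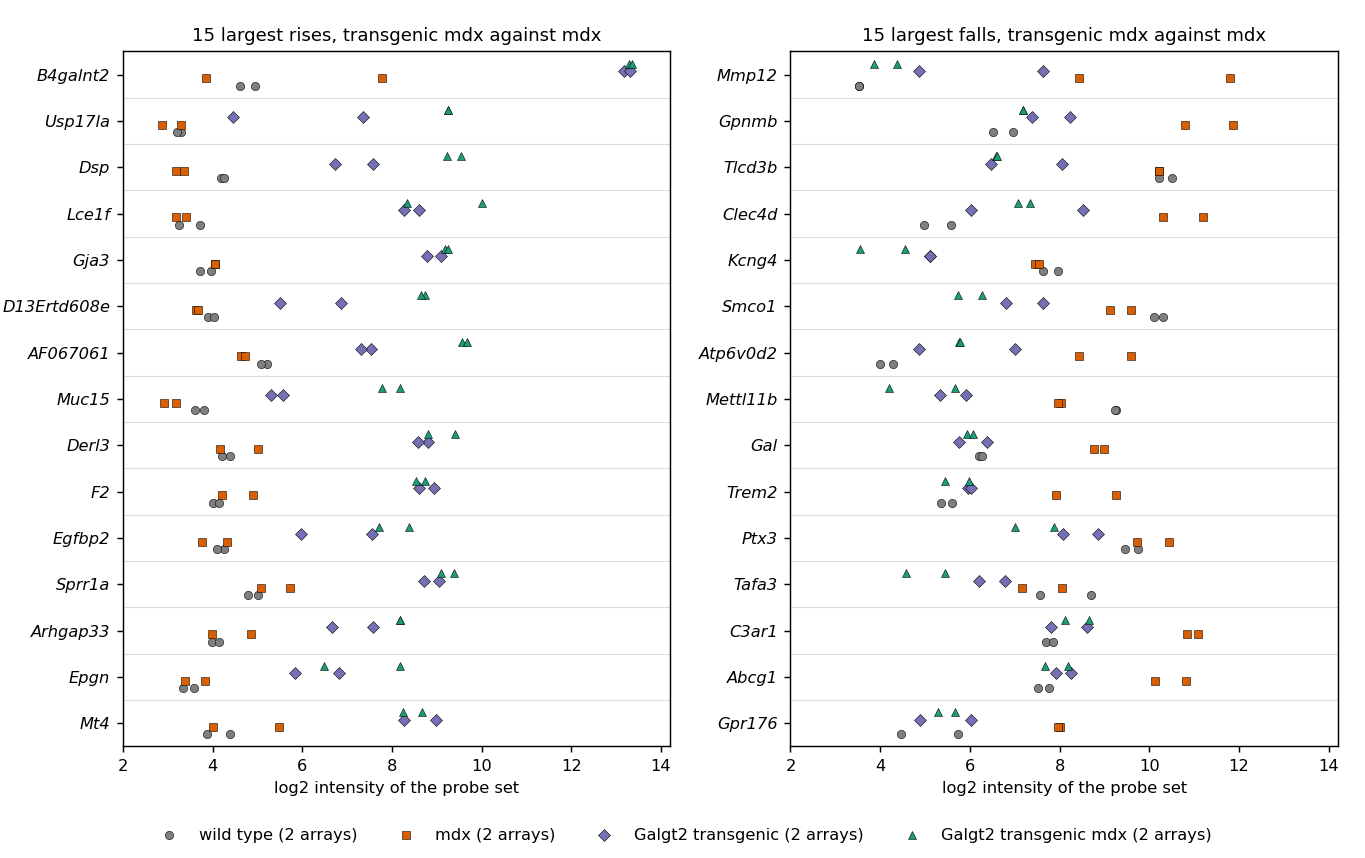
Log2 intensity of the 15 genes with the largest called rises (left) and falls (right) in each of the 8 arrays of the first set, 1 symbol an array. The 2 transgenic mdx arrays (green triangles) lie on 1 side of the 2 mdx arrays (orange squares) for every gene shown. Only genes with such separation were picked. Transgenic muscle with normal dystrophin (purple diamonds) is nearer to transgenic mdx than to mdx for most rises, and wild type (grey circles) is low for all 15.

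The largest rises included proteins of cornified epithelium, cell junctions and endoplasmic reticulum, and several genes near the low end of the scale in mdx. Usp17la, a deubiquitinase of a family of near-identical copies, was read at 7.38 and 9.77 in mdx and at 608.3 and 604 in transgenic mdx, a log2 difference of 6.16 ± 0.74. Dsp, desmoplakin, which ties desmosomes to intermediate filaments, went from 10.2 and 9.14 to 602 and 739.5, a difference of 6.11 ± 0.48. Lce1f, a late cornified envelope protein, was read at 9.03 and 10.7 against 1034 and 323, a difference of 5.88 ± 0.44. In each of these the mdx arrays lay below the lower quartile of the array and the transgenic mdx arrays above its median. Gja3, the gap junction protein connexin 46 known from the lens, was read at 16.6 in both mdx arrays and at 584 and 612 in transgenic mdx, a difference of 5.17 ± 0.27 with adjusted p = 1.11e-05. A second Gja3 probe set differed by 0.20 and did not pass, and 1 of the 3 Dsp probe sets differed by -0.12. Muc15, a membrane-bound mucin, was read at 7.60 and 9.06 against 288 and 221, a difference of 4.93 ± 0.23. F2, prothrombin, was read at 18.6 and 29.7 against 429 and 374, a difference of 4.09 ± 0.28. Epgn, a ligand of the epidermal growth factor receptor, differed by 3.72 ± 0.48, Mt4, a metallothionein of stratified epithelium, by 3.71 ± 0.55, and Sprr1a, a small proline-rich cornified envelope protein, by 3.82 ± 0.26. Arhgap33, a GTPase-activating protein, differed by 3.76 ± 0.38. Egfbp2, of the tissue kallikrein family, differed by 4.00 ± 0.43, but that family holds near-identical copies whose signals the probes may mix. All 15 rises pointed the same way in transgenic against wild-type muscle and kept their call in every fit that left out an array. Within mdx, 14 of the 15 (93.3%) were higher on mdx 2 than on mdx 1, as were 58.4% of all genes. The part of this offset in the differences was not tested.

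Of the 15 largest falls, several belong to genes known from macrophages, and the rest have varied roles. Mmp12, macrophage metalloelastase, was read at 3549 and 346 in mdx and at 14.6 and 20.6 in transgenic mdx, a difference of -6.00 ± 1.27 with adjusted p = 0.0242. The mdx arrays differed widely from each other, and both stood far above transgenic mdx. Gpnmb, a transmembrane glycoprotein of lipid-laden macrophages, fell from 3740 and 1776 to 145 and 146, a difference of -4.15 ± 0.56. Clec4d, a myeloid C-type lectin receptor, fell by 3.55 and Atp6v0d2, a proton pump subunit of osteoclasts and macrophages, by 3.24. Tlcd3b, linked to ceramide synthesis, was read at 1193 and 1191 in mdx and 1464 and 1181 in wild type, but at 95.6 and 97.2 in transgenic mdx and 264 and 88.4 in transgenic muscle, so that both transgenic groups were low. The difference in mdx muscle was -3.63 ± 0.44. Of the 4 Tlcd3b probe sets 3 were called lower, and the highest difference was 0.04. Kcng4, a modifier subunit of voltage-gated potassium channels, showed the same order, with 174 and 186.5 in mdx and 11.7 and 23.3 in transgenic mdx, a difference of -3.45 ± 0.30. Smco1, a single-pass membrane protein, differed by -3.35 ± 0.30, and Mettl11b, an N-terminal methyltransferase, by -3.07 ± 0.46. Gal, the neuropeptide galanin, was read at 439 and 506 in mdx, at 61.1 and 66.7 in transgenic mdx and at 73.8 and 76.6 in wild type, a difference of -2.88 ± 0.41. Ptx3, a secreted pentraxin of innate immunity, fell by 2.64, Tafa3, a secreted chemokine-like protein, by 2.59, and Abcg1, a cholesterol exporter, by 2.55. Gpr176, an orphan receptor, fell by 2.50. Of the 15 largest falls, 8 kept their call in every fit that left out an array. Mmp12, Clec4d, Atp6v0d2, Trem2, C3ar1, Abcg1 and Gpr176 lost it without transgenic mdx 2, all but Trem2 and C3ar1 also without mdx 1, Mmp12, Clec4d, Atp6v0d2 and Gpr176 also without transgenic mdx 1, Clec4d and Gpr176 also without mdx 2, and Gpr176 also without either AAV-Galgt2 array.

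Macrophage genes were lower in transgenic mdx as a whole list, in a bulk sample where fewer macrophages and less RNA per macrophage cannot be told apart. Of 17 genes of macrophages that take up lipid and debris, 6 fell, none rose and all 17 had a negative difference, with a median of -1.50. Of 21 general macrophage and monocyte genes, 6 fell, none rose and all 21 were negative, with a median of -1.03. Of all genes 2.11% were called lower. Trem2, the lipid receptor that defines the first kind, was read at 616 and 240.3 in mdx and at 63.3 and 43.6 in transgenic mdx, a difference of -2.87 ± 0.51. The transgenic mdx values overlapped the 41.1 and 48.5 of wild type, and 1 of its 2 probe sets differed by -0.02. Tyrobp, the signalling adaptor that pairs with Trem2, was read at 3555 and 2507 against 990.1 and 898, a difference of -1.66 ± 0.27, with wild type at 342 and 365. C1qa, a chain of complement C1q that macrophages secrete, fell from 656 and 498 to 237 and 174, a difference of -1.50 ± 0.32. Cd84, a leukocyte adhesion receptor, differed by -1.47 ± 0.28 and Fcgr3, a low-affinity receptor for immunoglobulin G, by -1.35 ± 0.33. Lyz2 and Adgre1, named after their values were seen, encode macrophage lysozyme and the F4/80 antigen and differed by -1.04 and -1.13. Members that did not pass included Cd68 at -1.99 (adjusted p = 0.0627), Itgax at -2.38, the scavenger receptor Msr1 at -1.35 and the mannose receptor Mrc1 at -0.44, all named on the same basis. The 4 defining macrophage markers Csf1r, Adgre1, Itgam and Cd68 summed to 7960 and 8915 in mdx and to 4296 and 4471 in transgenic mdx, with no overlap, and to 2533 and 1494 in wild type. Csf1r, the brightest, was read at 4031 and 6025 in mdx and at 3021 and 3549 in transgenic mdx. Its difference was -0.59 (adjusted p = 0.581). Itgam was read at 31.5 and 19.9 against 19.4 and 22.9, so its groups overlapped. Of the 4, Adgre1 alone was called, and lost the call in 10 of the 12 fits that left out an array.

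These calls leaned on single arrays more than the direction did. In the first list the number called was 2 without mdx 1, 7 without mdx 2, 2 without transgenic mdx 1 and 1 without transgenic mdx 2, with medians between -2.08 and -1.15. The second gave 1, 2, 2 and 1 in the same order, with medians between -1.04 and -0.80. C3ar1, the receptor for complement fragment C3a and 1 of 10 complement genes, was read at 2175 and 1847 in mdx and at 401 and 278 in transgenic mdx, a difference of -2.58 ± 0.40, and was the list's sole call. Among 16 chemokines, Cxcl16 fell by 0.92 at adjusted p = 0.0466 and the interferon-induced Cxcl10 rose. Cxcl16 lost its call in 10 of the 12 fits that left out an array, among them those without any 1 of the 4 compared arrays. Of 13 lymphocyte genes none was called, and their median of 0.04 was set by single arrays, being 0.59 without mdx 1, -0.69 without mdx 2, 0.74 without transgenic mdx 1 and -0.34 without transgenic mdx 2. Without transgenic mdx 1 there was 1 higher call. The list held Cd3d, a T-cell receptor chain, at 124 and 34.8 in mdx and 74.8 and 189 in transgenic mdx. Il7r, a lymphocyte cytokine receptor, was read at 1091 and 201.6 against 126 and 251, so the groups overlapped for both. Kit, the stem cell factor receptor found on mast cells, fell by 1.36 as the single call among 12 neutrophil and mast cell genes. The mast cell protease markers Cpa3 and Cma1 had differences of the other sign, 1.28 and 0.33, and were not called. They summed to 337 and 623 in mdx and to 568 and 1108 in transgenic mdx, so the groups overlapped. Kit lost its call without mdx 1, without transgenic mdx 2 or without either AAV-Galgt2 array. The 12 antigen presentation genes held no call at a median of -0.47, and the class II genes H2-Eb1 and H2-DMa differed by -0.82 and -1.36 at adjusted p = 0.055 and 0.0557.

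**Figure D2:**
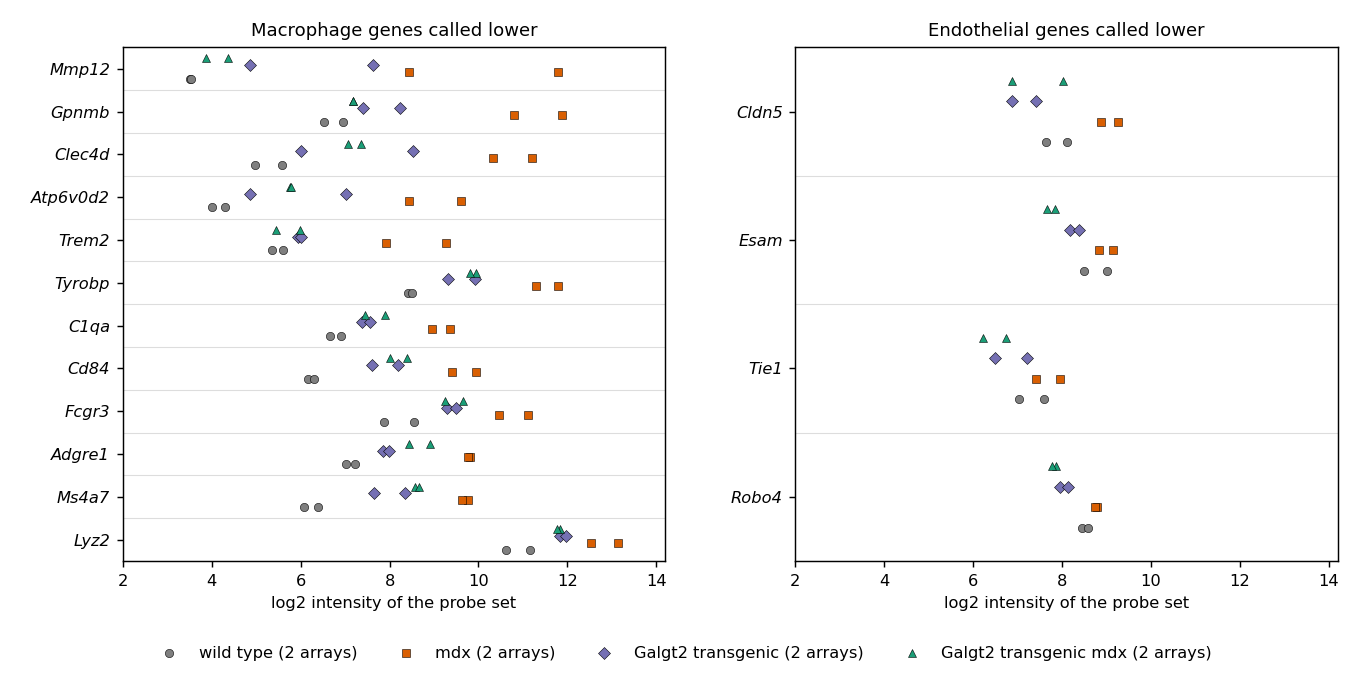
Log2 intensity of the 12 called macrophage genes (left) and the 4 called endothelial genes (right) in the 8 arrays of the first set, 1 symbol an array. The 2 mdx arrays (orange squares) lie above the 2 transgenic mdx arrays (green triangles) in every row. Such separation held for every called gene. Wild type (grey circles) is lowest for most macrophage genes.

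Genes of the endoplasmic reticulum that fold proteins or export misfolded ones for degradation were higher in transgenic mdx. Of 23 such genes, 9 rose, against 3.97% of all genes, none fell and 21 had a positive difference, with a median of 1.02. Derl3, a derlin of the degradation channel, was read at 17.8 and 32.3 in mdx and at 675 and 448 in transgenic mdx, a difference of 4.52 ± 0.31 with adjusted p = 6.99e-05. Creld2, a secreted chaperone of the stressed reticulum, was read at 231 and 227 against 1430 and 915, a difference of 2.32 ± 0.30. Hsp90b1, the reticulum's Hsp90 chaperone, was read at 939.6 and 565 against 3319 and 2328, a difference of 1.93 ± 0.32. Syvn1, the ubiquitin ligase of the same degradation pathway, was read at 539 and 369 against 1456 and 1071, a difference of 1.49 ± 0.34. For all 4 the lower transgenic mdx array stood above the higher mdx array. The other 5 called members, named after their values were seen, were Manf at 1.38, Herpud1 at 1.17, Hspa5, the main luminal chaperone, at 1.16, Hyou1 at 1.15 and Dnajb9 at 0.92. Xbp1 and Atf6, transcription factors of the unfolded protein response named on the same basis, differed by 0.45 and 1.09 and did not pass (adjusted p = 0.46 and 0.0512).

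Several of these genes are known targets of the unfolded protein response through the ER stress response element, ERSE, written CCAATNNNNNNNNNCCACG. The 250 bases upstream of the annotated start of 4 called members are shown because each holds this element. They were taken from RefSeq on build GRCm38.p6 and are written 5' to 3' on the gene's strand, with capitals at matches on either strand. Derl3 lies at chr10:75893148-75893397 (plus strand), Creld2 at chr15:88819396-88819645 (plus), Hsp90b1 at chr10:86705445-86705694 (minus) and Syvn1 at chr19:6046326-6046575 (plus).
Derl3: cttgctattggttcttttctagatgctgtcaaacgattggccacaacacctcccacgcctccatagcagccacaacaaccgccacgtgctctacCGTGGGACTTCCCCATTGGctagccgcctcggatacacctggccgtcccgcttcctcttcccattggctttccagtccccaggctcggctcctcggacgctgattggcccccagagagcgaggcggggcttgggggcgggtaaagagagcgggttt
Creld2: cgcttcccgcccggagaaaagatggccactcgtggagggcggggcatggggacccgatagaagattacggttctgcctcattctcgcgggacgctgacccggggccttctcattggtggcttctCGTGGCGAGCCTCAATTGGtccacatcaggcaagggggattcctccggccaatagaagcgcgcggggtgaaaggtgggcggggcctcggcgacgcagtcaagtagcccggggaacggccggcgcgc
Hsp90b1: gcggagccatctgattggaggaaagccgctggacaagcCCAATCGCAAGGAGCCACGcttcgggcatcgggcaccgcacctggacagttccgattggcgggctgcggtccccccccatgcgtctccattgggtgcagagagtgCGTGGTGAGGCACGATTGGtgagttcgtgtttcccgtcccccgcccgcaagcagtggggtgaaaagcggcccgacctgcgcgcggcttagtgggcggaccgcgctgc
Syvn1: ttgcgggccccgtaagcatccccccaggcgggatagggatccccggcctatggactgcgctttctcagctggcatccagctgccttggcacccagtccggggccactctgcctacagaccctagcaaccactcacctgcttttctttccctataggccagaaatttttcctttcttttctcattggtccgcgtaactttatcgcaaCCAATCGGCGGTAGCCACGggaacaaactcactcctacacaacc
Hsp90b1 holds 2 matches and the other 3 hold 1 each. The element was found in 5 of 7 called members that have a window of 300 bases, 250 before and 50 after the start (71.4%). It was found in 9 of 19 members of the list with a window. Over all genes with a window the share was 37 of 27025 (0.137%), and over all windows 39 of 32851 (0.119%). The shorter element ERSE-II, ATTGGNCCACG, was found in 1 of the 7 and in 0.0444% of all genes with a window. These matches describe letters in a window and do not show binding.

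Calls in the chaperone list were 8 without mdx 1, 3 without mdx 2, 3 without transgenic mdx 1 and 4 without transgenic mdx 2, while the median stayed between 0.79 and 1.16. Derl3, Creld2 and Hsp90b1 kept theirs in every such fit. In the integrated stress response, which phosphorylated eIF2 and Atf4 drive, 3 of 21 genes rose, none fell and 18 were positive, with a median of 0.52. Trib3, a pseudokinase that Atf4 and Ddit3 induce, was read at 50.3 and 96.4 in mdx and at 588 and 434 in transgenic mdx, a difference of 2.86 ± 0.31. Ddit3, the transcription factor CHOP, was read at 262 and 172 against 1079 and 654, a difference of 1.98 ± 0.48, and Mthfd2, a mitochondrial folate enzyme, at 507 and 697 against 1607 and 1617, a difference of 1.44 ± 0.22. Trib3 and Mthfd2 were called in every fit that left out an array, whereas Ddit3 was not called without mdx 2, without either transgenic mdx array or without either AAV-Galgt2 array. Atf4 itself, named after its value was seen, differed by 0.29 (adjusted p = 0.549). The Atf4 composite element TGATGNAA was in the window of 1 of the 3 called genes, Trib3, and in 4.51% of all genes with a window. Among 14 immediate early and heat shock genes 2 rose, the cytosolic Hsp70 genes Hspa1a by 2.42 ± 0.61 and Hspa1b by 1.45 ± 0.37. These are near-identical copies whose signals the probes may share, and both calls were lost without either mdx array, among others. Hspa1a was read at 28.7 and 60.8 in mdx and at 431 and 116 in transgenic mdx.

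Interferon-stimulated genes, many of which encode antiviral proteins, were higher in transgenic mdx. Of 24 measured, 10 rose, against 3.97% of all genes, none fell and 21 were positive, with a median of 1.29. Ifih1, the cytosolic sensor of long double-stranded RNA, was read at 221 and 254 in mdx and at 2728 and 1582 in transgenic mdx, a difference of 3.13 ± 0.43 with adjusted p = 0.00354. Ifit1, which binds foreign RNA, was read at 435 and 341 against 4062 and 1988, a difference of 2.88 ± 0.44. Iigp1, an immunity-related GTPase, was read at 321 and 227 against 1739 and 1410.0, a difference of 2.54 ± 0.43. Ifit2, of the Ifit1 family, was read at 177 and 91.9 against 877 and 486, a difference of 2.36 ± 0.37. In each the groups were apart, and transgenic mdx 1 was the higher of its pair. The 6 further calls, named after their values were seen, were Ifit3 at 2.14, Rsad2 at 2.04, Gbp3 at 1.66, Mx2 at 1.49, Usp18 at 1.34 and Oas2 at 1.34. Cxcl10, an interferon-induced chemokine, was read at 148 and 115 against 816 and 434, a difference of 2.19 ± 0.34. The interferon-inducible proteasome and transporter genes Psmb9, Psmb8 and Tap1, named on the same basis, were the 3 negative members, at -0.85, -0.64 and -0.33. Calls numbered 9 without mdx 1, 7 without mdx 2, 8 without transgenic mdx 1 and 10 without transgenic mdx 2, and 7 were kept in all 12 such fits. The summed lymphocyte markers, 476 and 192 in mdx and 201 and 625 in transgenic mdx, overlapped between the groups.

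The interferon-stimulated response element was searched as GAAANNGAAA on both strands. It occurred in the windows of 5 of 6 called genes with a window (83.3%) and in 11 of 19 genes of the list with one. Of all genes with a window 3.99% held it, and of all 32851 windows 3.44%. The 250 bases before the start of Ifit1 (chr19:34640639-34640888, plus strand, GRCm38.p6) are shown because they hold 2 matches close together, in capitals, which read as the reverse complement on this strand.
Ifit1: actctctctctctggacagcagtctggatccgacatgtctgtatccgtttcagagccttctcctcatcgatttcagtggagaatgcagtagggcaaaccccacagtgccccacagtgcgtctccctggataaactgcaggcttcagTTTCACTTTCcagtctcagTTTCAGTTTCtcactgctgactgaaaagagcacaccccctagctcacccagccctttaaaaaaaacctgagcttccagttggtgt

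**Figure D3:**
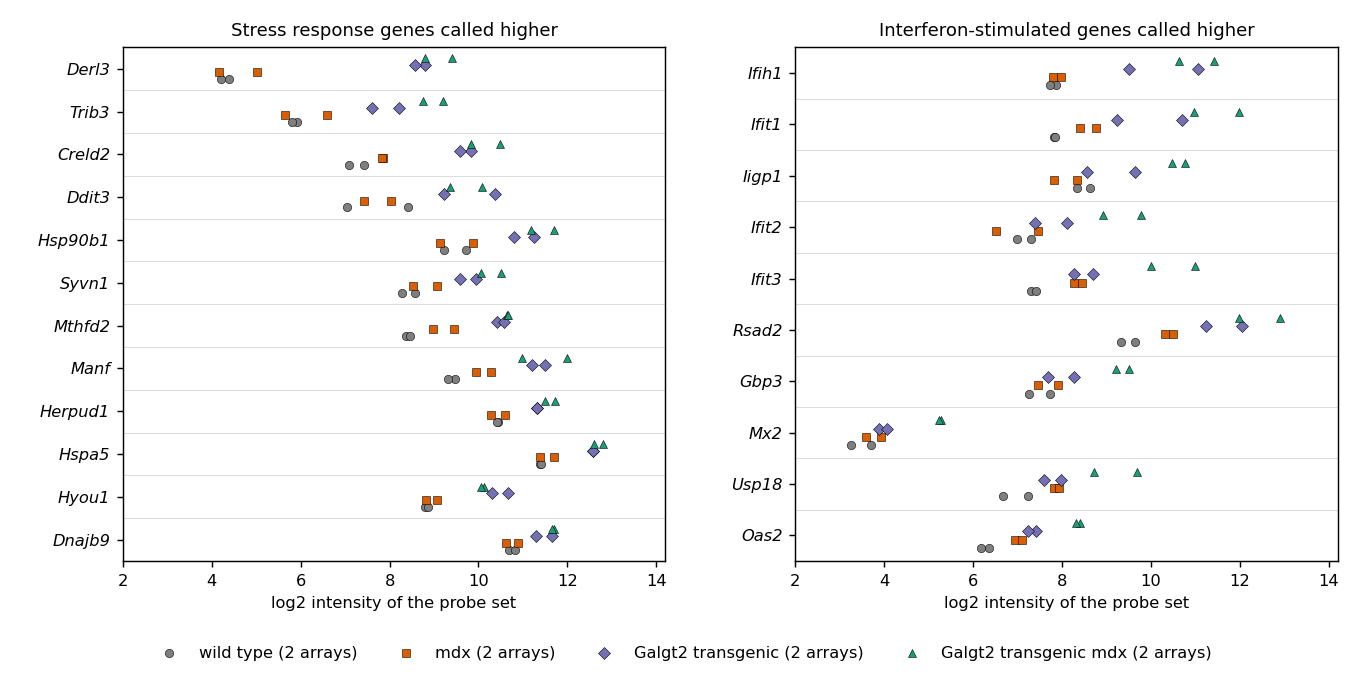
Log2 intensity of the 12 called genes of endoplasmic reticulum chaperones and the integrated stress response (left) and the 10 called interferon-stimulated genes (right) in the 8 arrays of the first set, 1 symbol an array. Transgenic mdx (green triangles) lies above mdx (orange squares) in every row. Every called gene had such separation. Transgenic muscle with normal dystrophin (purple diamonds) lies near transgenic mdx for the stress genes and lower than it for several interferon genes.

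Desmosomes and the cornified layer belong to skin and other stratified epithelia, with desmosomes also present in heart. Of 19 such genes 7 rose, against 3.97% of all genes, none fell, 11 were positive and 8 negative, and the median was 0.92. Besides Dsp, Lce1f and Sprr1a these were Perp, a desmosomal target of p53-family factors read at 216 and 284 in mdx and at 3090.0 and 816 in transgenic mdx (2.68 ± 0.54), and, named after their values were seen, Trp63 at 2.60, Pkp1 at 1.82 and Krt8 at 1.75. Trp63, the p63 transcription factor of basal epithelium, was read at 253 and 164 against 1321 and 1148. The 5 markers of skin epithelium, Krt5, Krt14, Lor, Cdh1 and Epcam, were all below the median of all genes on the 4 arrays and summed to 150.2 and 170 in mdx and to 161 and 113 in transgenic mdx. None was called. Calls in the list fell to 4 higher and 1 lower without mdx 1 and to 4 higher without transgenic mdx 1, and 4 of the 7 were kept in every fit that left out an array. Perp lost its call without either mdx array or without transgenic mdx 1.

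Genes known from the two-cell embryo were also higher. All 6 measured were positive, 4 rose, against 3.97% of all genes, and the median was 2.47. The calls were Usp17la, AF067061, Tcstv1 and Tcstv3, while Tdpoz1 and Zfp352 did not pass. Listed genes that were not measured included Zscan4c, Zscan4d and Zscan4f. AF067061 was read at 24.9 and 26.5 in mdx and at 757.5 and 815 in transgenic mdx, a difference of 4.93 ± 0.18 with adjusted p = 1.02e-06. Tcstv1 was read at 14.4 and 13.7 against 104 and 92.3, a difference of 2.80 ± 0.19, and Tcstv3 at 5.71 and 6.84 against 36.5 and 20.6, a difference of 2.13 ± 0.26. D13Ertd608e, which is in no list, was read at 12.3 and 12.7 against 423.5 and 403, a difference of 5.04 ± 0.37. By gene order in RefSeq, D13Ertd608e, Tcstv1, AF067061 and Tcstv3 all lie in 1 short stretch of chromosome 13, the cluster being one of related copies, so that their probe sets may read each other's transcripts. In wild type AF067061 was read at 37.3 and 34.1 and in transgenic muscle at 186 and 157.5, between wild type and transgenic mdx.

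**Figure D4:**
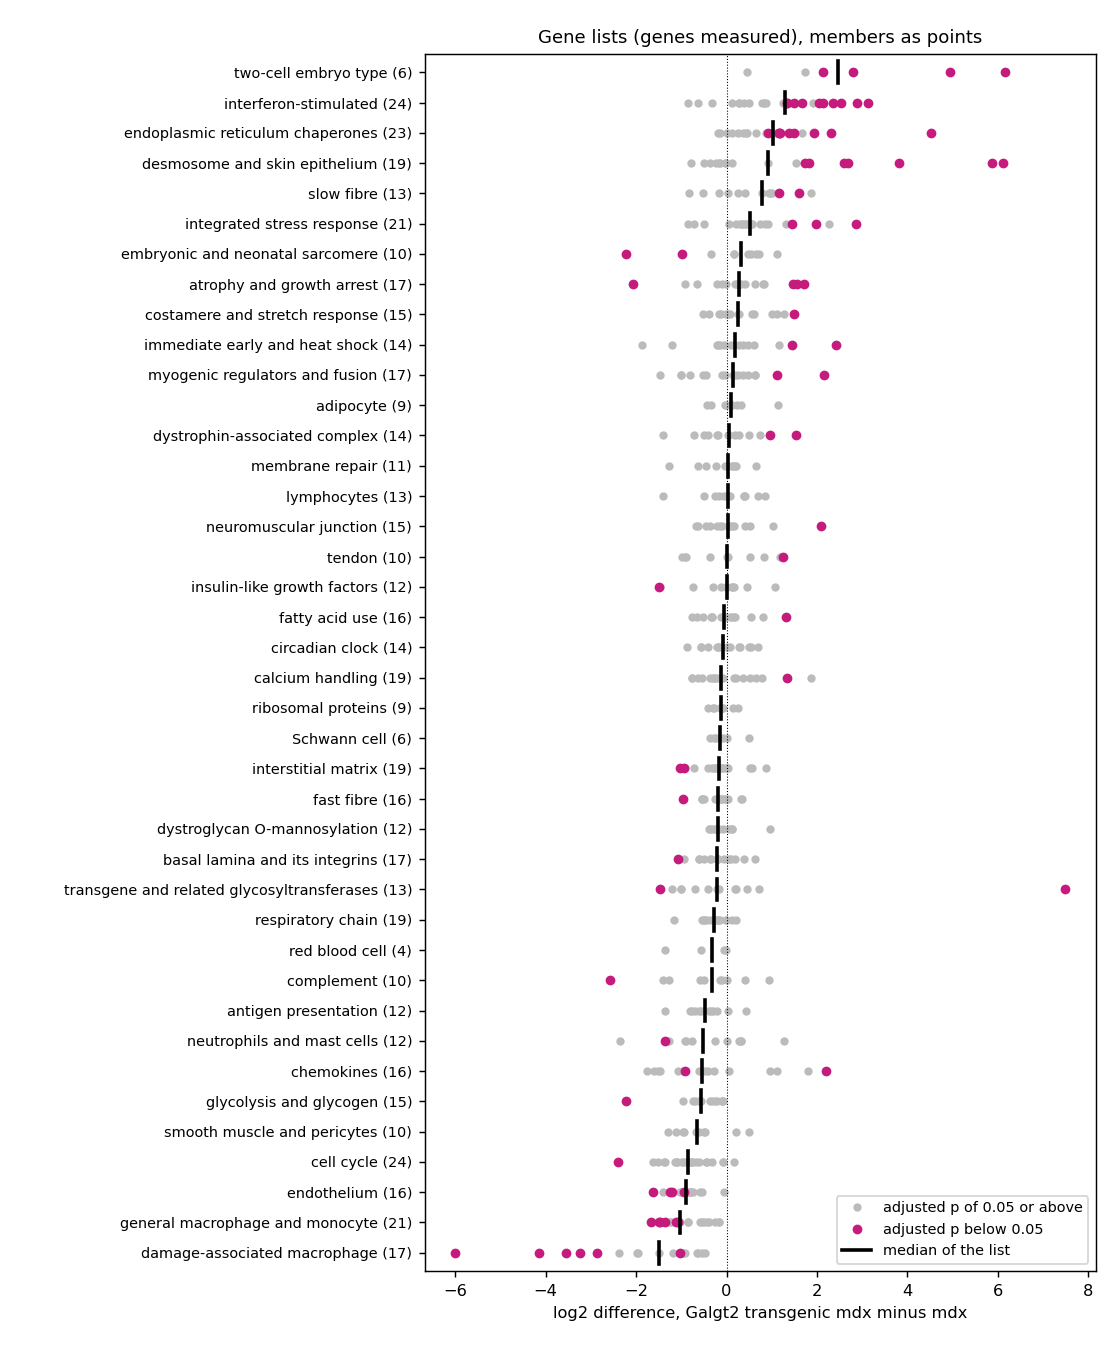
Log2 difference, transgenic mdx minus mdx, of every measured member of the 40 gene lists, 1 point a gene, with called genes in pink and each list's median as a black bar. Lists are ordered by median, from 2.47 in the two-cell embryo list to -1.50 in macrophages that take up debris, and the dotted line marks 0. The median over all 18194 genes was -0.01.

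Differences in the dystrophin-associated complex ran from -1.41 to 1.54. Of 14 genes 2 rose, Dmd and Sntb1, against 3.97% of all genes. The median was 0.05, or -0.14 without transgenic mdx 2 and -0.09 without mdx 2. The groups did not overlap for 5 genes as higher and 4 as lower, beside 21.8% and 22.3% of all genes. Without transgenic mdx 1 the list held 1 higher and 1 lower call. Sntb1, beta-1 syntrophin, which binds dystrophin, was read at 2020.0 and 1529 in mdx and at 3721 and 3194 in transgenic mdx, a difference of 0.97 ± 0.23 with adjusted p = 0.0388. It lost the call without mdx 2, without either array of transgenic mdx, of wild type or of AAV-Galgt2. Utrn, the dystrophin relative utrophin, and Dag1, dystroglycan, named after their values were seen, differed by 0.04 and -0.20 (adjusted p = 0.973 and 0.678). Nos1, the neuronal nitric oxide synthase that the complex anchors, named on the same basis, was read at 305 and 427 in mdx and at 248.7 and 74.2 in transgenic mdx, a difference of -1.41 ± 0.51 that did not pass (adjusted p = 0.142). The 12 enzymes of dystroglycan O-mannosylation held no call at a median of -0.18. B3galnt2, one of them, differed by 0.96 ± 0.29 (adjusted p = 0.0828) and Dpm2, a subunit of dolichol-phosphate-mannose synthase, by -0.31. Among 13 glycosyltransferases related to the transgene or acting on its sialylated acceptors, B4galnt1, the ganglioside GM2 synthase, was read at 147 and 94.4 in mdx and at 42.3 and 43.0 in transgenic mdx, a difference of -1.47 ± 0.32. It lost the call without mdx 1 or without either transgenic mdx array. A second B4galnt1 probe set differed by -0.17. Apart from B4galnt2 the list held no rise.

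Calls among basal lamina, matrix and growth factor genes are given beside 3.97% of all genes called higher and 2.11% lower. Lama4, a laminin chain of vessels and fibres, fell by 1.08 as the sole call of 17 basal lamina and integrin genes, whose median was -0.22, or -0.03 without mdx 1. It was read at 1459 and 1061 in mdx and at 554 and 625 in transgenic mdx. Col5a1, a fibrillar collagen chain, fell by 1.03 and Tgfb1, the fibrosis-promoting growth factor, by 0.95, at adjusted p = 0.0497 and 0.0406. They were the 2 calls among 19 interstitial matrix genes at a median of -0.17. Lama4 lost its call without mdx 1 or either transgenic mdx array, and Col5a1 and Tgfb1 without any 1 of the 4 compared arrays. Igfbp3, a binding protein of insulin-like growth factors, was read at 442 and 404 against 130.5 and 173, a difference of -1.49 ± 0.24, and was the sole call of 12 genes at a median of 0.00. Scx, the tendon transcription factor scleraxis, rose by 1.25 ± 0.30 as the only call of 10 tendon genes (median 0.01). Its call was lost without mdx 1 and without either transgenic mdx array, among others.

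In the programme of fibre formation, Sox11, a developmental transcription factor, was read at 2345 and 1614 in mdx and at 9267 and 8243 in transgenic mdx, a difference of 2.17 ± 0.37. All 6 of its probe sets were called higher. Myf5, a myogenic regulator of satellite cells, rose by 1.13 ± 0.22, from 499 and 324 to 863 and 893. These were the 2 calls of 17 myogenic genes (median 0.13), and Pax7, Myod1 and Myog, named after their values were seen, differed by -0.03, -0.10 and 0.13. Both calls were lost without mdx 2 and without transgenic mdx 2, and that of Myf5 also without transgenic mdx 1. Of 10 embryonic and neonatal sarcomere genes 2 fell, at a list median of 0.32, or 0.06 without mdx 2. Actc1, cardiac actin of developing muscle, was read at 8853 and 8484 in mdx and at 1504 and 2284 in transgenic mdx, a difference of -2.23 ± 0.26 with adjusted p = 0.00151. Wild type had 7172 and 7765 and transgenic muscle 3814 and 2538, so mdx lay near wild type and both transgenic groups were low. Acta2, smooth muscle actin, fell by 0.98 at adjusted p = 0.042 and lost the call without any 1 of the 4 arrays.

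Slow fibre genes had a median of 0.78 over 13 measured, with 2 called higher and none lower, against 3.97% and 2.11% of all genes. The median was 0.35 without mdx 1, where 1 was called higher. Without transgenic mdx 1 the list held 1 higher and 1 lower call, and without transgenic mdx 2 it held none. Fhl2, a LIM protein of cardiac and slow muscle, was read at 191 and 119 in mdx and at 420.3 and 492.5 in transgenic mdx, a difference of 1.60 ± 0.24. Tnni1, slow troponin I, rose by 1.16 ± 0.29 at adjusted p = 0.0412, and lost the call under both other scalings of the arrays and without mdx 1 or either transgenic mdx array, among others. Among 16 fast fibre genes Ckm, the muscle creatine kinase, was read at 8184 and 9682 against 5282 and 3938, a difference of -0.96 ± 0.21, the only call at a median of -0.18. It lost the call without mdx 2 or without transgenic mdx 2, the array with the high 3' signal. Chrnd, the delta subunit of the acetylcholine receptor, was read at 55.3 and 45.9 in mdx and at 287 and 159 in transgenic mdx, a difference of 2.08 ± 0.31. It was the single call of 15 neuromuscular junction genes (median 0.04) and was kept in every fit that left out an array. Pln, the calcium pump inhibitor phospholamban, rose by 1.34 ± 0.34 among 19 calcium handling genes, whose median was -0.12. Of its 3 probe sets 2 were positive, the lowest stood at -0.51, and none passed when adjustment ran over all probe sets. Xirp1, a stretch-responsive costamere protein, rose by 1.50 ± 0.39 among 15 genes at a median of 0.25. Both genes, at adjusted p = 0.0446 and 0.049, lost the call without mdx 1 and without either transgenic mdx array, among others. The 11 membrane repair genes held no call (median 0.04), with the dysferlin relative Myof at -1.27 (adjusted p = 0.0927) and Anxa4, an annexin, at 0.66 (0.145).

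Growth arrest and atrophy genes were mixed, with 3 of 17 higher, 1 lower and a median of 0.27, or 0.08 without mdx 1 and 0.01 without transgenic mdx 1. Eda2r, a receptor of the tumour necrosis factor family, was read at 1552 and 2490.0 in mdx and at 6433 and 5227 in transgenic mdx, a difference of 1.56 ± 0.26. Cdkn1a, the cell cycle inhibitor p21, was read at 1553 and 1868 against 4661 and 4733, a difference of 1.46 ± 0.30, and lost the call without any 1 of the 4 arrays. Fbxo30, a ubiquitin ligase subunit of muscle wasting, rose by 1.72 ± 0.33, from 733 and 363 to 1779 and 1613, near the 1635 and 1589 of wild type, and lost the call without mdx 2 or either transgenic mdx array. Gadd45b, a stress-induced growth arrest protein, was read at 1025 and 855 against 274.5 and 181, a difference of -2.07 ± 0.34, with all 3 of its probe sets called lower. Without transgenic mdx 2 the call was lost. Of 24 cell cycle genes 23 had a negative difference at a median of -0.84, and 1 was called. That gene, Aurka, a mitotic kinase, was read at 131 and 187 in mdx and at 24.9 and 35.2 in transgenic mdx, a difference of -2.40 ± 0.25 with adjusted p = 0.000763. Wild type had 193.5 and 227 and transgenic muscle 34.4 and 31.4, so both transgenic groups were low. A second Aurka probe set differed by -0.06. The list's median was -0.54 without transgenic mdx 1 and -1.22 without transgenic mdx 2.

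Metabolic genes are likewise set beside 3.97% of all genes called higher and 2.11% lower. All 15 glycolysis and glycogen genes were negative at a median of -0.56, and Gpd1, the cytosolic glycerol-3-phosphate dehydrogenase, was called, read at 3799 and 2856 in mdx and 473 and 1038 in transgenic mdx (-2.23 ± 0.39). Of 16 fatty acid genes 1 rose, Cd36, the fatty acid transporter, from 1084 and 1873 to 3719 and 3403 (1.32 ± 0.28), at a list median of -0.05. Without mdx 1 or either transgenic mdx array its call was lost. The 19 respiratory chain genes held no call and 17 were negative at a median of -0.28, with the complex III subunit Uqcrfs1 at -0.44 and the mitochondrial creatine kinase Ckmt2 at -0.55.

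Endothelial genes were lower throughout. All 16 were negative, 4 were called lower, against 2.11% of all genes, and the median was -0.89. Cldn5, the tight junction protein of endothelium, was read at 468 and 611 in mdx and at 117 and 259 in transgenic mdx, a difference of -1.62 ± 0.36. Esam, an endothelial adhesion molecule, was read at 567 and 457 against 229 and 202, a difference of -1.24 ± 0.22. Tie1, an endothelial receptor kinase, fell by 1.20 and Robo4, a vascular guidance receptor, by 0.94. The defining markers Pecam1, Cdh5, Kdr and Tek summed to 2848 and 3239 in mdx and 1696 and 1872 in transgenic mdx, with 3612 and 3822 in wild type, and none was called. Calls numbered 2, 3, 2 and 1 when mdx 1, mdx 2, transgenic mdx 1 and transgenic mdx 2 were left out, with medians between -1.02 and -0.86, and none was kept in all 12 such fits. Of 10 smooth muscle and pericyte genes none was called at a median of -0.64, with the pericyte receptor Pdgfrb at -1.12 (adjusted p = 0.0827) and Mcam at -0.95 (0.119).

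The transgene difference in mdx muscle was then set against that between transgenic and wild-type muscle, which shares no array with it. Transgenic and wild-type mice were of the same strain, whereas transgenic mdx and mdx mice were not. A gap between these differences may thus follow dystrophin status or strain, which cannot be told apart here. Of 723 genes called higher in transgenic mdx, 603 (83.4%) were also above 0 in transgenic against wild type, and of 384 called lower 109 (28.4%), against 44.6% of all genes. In that second comparison 573 genes were called (3.15%), 386 higher and 187 lower. A total of 184 genes were called higher in both, out of 723 and 386, and 65 lower in both, out of 384 and 187. Derl3 differed by 4.38 there and 4.52 in mdx muscle, Creld2 by 2.44 and 2.32, F2 by 4.69 and 4.09 and Gja3 by 5.09 and 5.17. The interferon genes Ifih1 and Ifit1 differed by 2.49 and 2.12 and were called, whereas Iigp1 and Ifit2 differed by 0.62 and 0.60 and were not. The macrophage list led by Mmp12 had a median of 1.10 on the wild-type background and of -1.50 on the mdx background, and the endothelial list medians of -0.43 and -0.89.

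The test of the difference itself called 8 genes (0.044%), 4 more positive (0.022%) and 4 more negative (0.022%) in mdx muscle. Lgals3, galectin-3 of phagocytic macrophages, was read at 293 and 152 in wild type and 2439 and 1551 in transgenic muscle, and at 5752 and 5636 in mdx and 1923 and 2119 in transgenic mdx. The transgenic arrays were thus higher on the wild-type background (3.20) and lower on the mdx background (-1.50, adjusted p = 0.0675), a difference of -4.70 ± 0.61 with adjusted p = 0.0374. Cd84, Ms4a7, a macrophage membrane protein, and Tyrobp had the same order, with differences of -3.13, -2.85 and -2.82. A second Ms4a7 probe set differed by -0.02 between transgenic mdx and mdx. Muc15 differed by 1.72 against wild type and by 4.93 in mdx muscle, a gap of 3.21 ± 0.32, and AF067061 by 2.26 and 4.93, a gap of 2.67 ± 0.26, both at adjusted p = 0.0107. Tcstv1 had a gap of 2.47. Kcnj3, a potassium channel subunit, had one of 2.20. It was read at 20.7 and 18.4 in mdx and 151 and 113 in transgenic mdx, and at 67.4 and 55.8 in wild type, so mdx was the low group. Of the 4 Kcnj3 probe sets 1 was called in transgenic mdx against mdx, and the lowest difference was 0.27. The number called rested on single arrays, being 0 without either wild-type array, 142 without mdx 1, 113 without either PBS array, 3 without transgenic 1 or without transgenic mdx 2, 30 without transgenic 2, 15 without transgenic mdx 1 and 2 without either AAV-Galgt2 array.

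Finally, germline overexpression was set beside postnatal delivery. AAV-Galgt2 and PBS muscles were of the same strain, whereas transgenic mdx and mdx mice were not. The comparisons also lie in different array sets. Delivery, strain and array set thus cannot be told apart in what follows. AAV-Galgt2 muscle had B4galnt2 at 1490 and 1505 against 38.7 and 19.2 in PBS muscle, a log2 difference of 5.78, on arrays with lower medians than the first set, so that levels are not compared across sets. No gene was called in AAV-Galgt2 against PBS (0.0%), where 1506 genes had an unadjusted limma p below 0.05. The fit took these arrays as independent although the muscles share mice. With the mouse as a block 0 genes were called whether arrays of the same number or of crossed numbers were paired, with 1496 and 1520 at an unadjusted limma p below 0.05. Of the genes called higher in transgenic mdx 297 of 723 (41.1%) were above 0 in AAV-Galgt2 against PBS, of those called lower 297 of 384 (77.3%), and of all genes 54.2%. Without PBS 1 the share for genes called lower was 57.0%. Across the 18194 genes, which are not independent replicates, the differences of the 2 comparisons correlated at r = -0.211, or -0.055 without PBS 1. The comparisons share no arrays.

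A direct test of the gap called 380 genes (2.09%), 217 (1.19%) more positive and 163 (0.896%) more negative in transgenic mdx. Usp17la had a gap of 6.99 ± 1.05 and Dsp, read at 9.09 and 18.99 in AAV-Galgt2 and 12.8 and 36.6 in PBS muscle, one of 6.83 ± 0.68. Lce1f, Gja3, D13Ertd608e, Muc15 and AF067061 had gaps between 4.73 and 5.91, and all 5 were read below 15 in AAV-Galgt2 and PBS muscle. Tlcd3b, lower in transgenic mdx, was read at 433 and 372 in AAV-Galgt2 and 113 and 204 in PBS muscle, a gap of -5.03 ± 0.62. Gpnmb, with 570.5 and 639 against 217 and 842, had a gap of -4.65 ± 0.79, and the unnamed locus BB557941 one of 4.52 ± 0.60. The chaperone list had a median of 0.18 in AAV-Galgt2 against PBS, the interferon list 0.43 and the macrophage list led by Mmp12 0.04. With the mouse as a block the test of the gap called 329 genes for the same numbers and 199 for crossed numbers. The count of gaps was 41 and 77 without AAV-Galgt2 2 and 1, 81 without PBS 1, 1074 without PBS 2 and also without mdx 1, 142 without mdx 2, 144 without transgenic mdx 2, 221 without transgenic mdx 1 and 132 without either wild-type array.

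**Figure D5:**
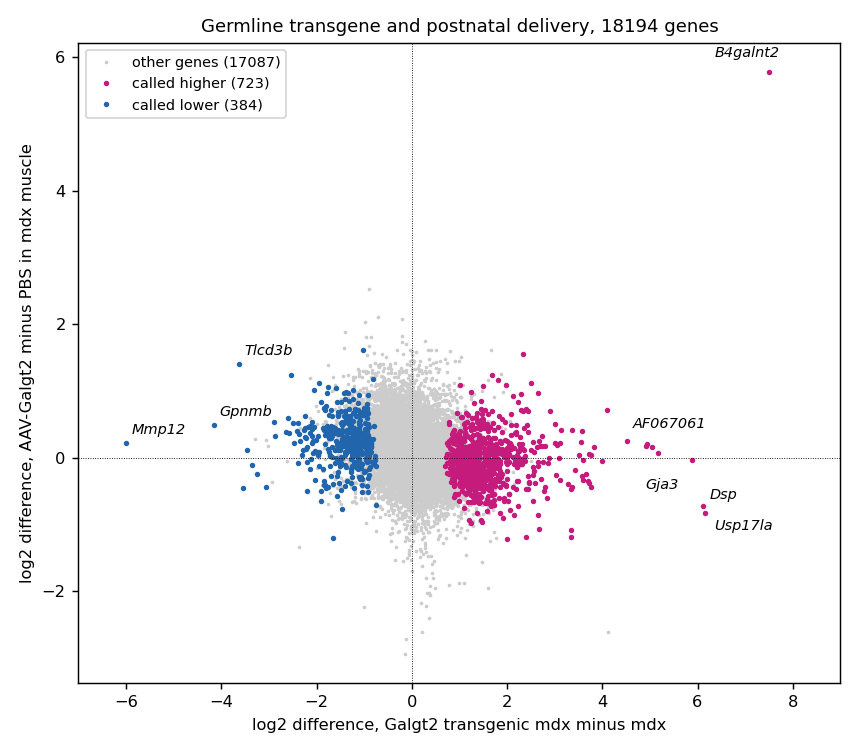
Log2 difference in transgenic mdx against mdx (horizontal) and in AAV-Galgt2 against PBS muscle (vertical) for 18194 genes, 1 point a gene, with genes called higher in the first in pink, called lower in blue and others in grey. B4galnt2 stands alone at upper right, at 7.49 and 5.78, while the other labelled genes lie near 0 or within 1.5 of it on the vertical axis.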

How the data were processed

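The deposited values are one intensity per probe set and array. The submitters' processing notes name GCOS and RMA without versions. Whether the authors processed the array sets together is not given in the sources used here. The values are positive and linear in range, and log2 was taken from them. By GEO's platform annotation, 34958 of 45101 probe sets had 1 gene symbol, 932 had several and 9211 had none. Each gene was represented by the single-symbol probe set that was brightest on average in muscle, giving 18194 genes.

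One model of 6 group means over the 12 muscle arrays was fitted with lmFit and eBayes of limma 3.58.1 in R 4.3.3. Contrasts were transgenic mdx minus mdx, its difference from transgenic minus wild type, and its difference from AAV-Galgt2 minus PBS. Tests are two-sided, and Benjamini-Hochberg adjustment ran over all 18194 genes with a threshold of 0.05. Arrays have no read depth, and 2 arrays a group limit the precision. Tested on simulated data, the script recovered 73% of 100 genes changed by 2 log2 units and 8% of 100 changed by 1, with 6 false calls among 18194 genes. The simulation drew independent normal noise with the same spread per gene in all groups. In the data, replicate SDs ran from 0.334 in AAV-Galgt2 to 0.607 in mdx muscle. The simulation therefore checks the script and gives no error rate for these data.

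The comparison, the members of the 40 gene lists and the rules were chosen with earlier results of these data known, so lists are described by counts and medians and were not tested. Of 624 listed genes 568 were measured. Named genes are B4galnt2, Dmd, the 15 largest called rises and falls with groups apart and the higher mean at or above the median of all genes, up to 4 called members a list and direction or the 2 of smallest p where none was called, and up to 10 genes for each test of a difference between comparisons. Alternatives were fits on fewer arrays, the replicate number as a block, other scalings, log2(value + 16), a filter on dim genes at their lower quartile, the mean of all probe sets, eBayes with trend and robust, and leaving out each array. The mouse as a block for AAV-Galgt2 and PBS arrays was added after seeing the data. Promoter windows are from RefSeq, build GRCm38.p6, and were searched on both strands. The cell line arrays were not used here.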

Additional observations from a re-analysis of the deposited data

Results flagged for a closer look

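Genes are given here because the transgene difference in mdx muscle differed from the transgene difference in muscle with normal dystrophin by limma's test of that gap. Only the comparison in mdx muscle also differed in strain, so the gap cannot be assigned to dystrophin status alone. The gap in log2 units was 3.21 for Muc15, 2.67 for AF067061, 2.47 for Tcstv1 and 2.20 for Kcnj3, each more positive in mdx muscle. It was -4.70 for Lgals3, -3.13 for Cd84, -2.85 for Ms4a7 and -2.82 for Tyrobp, 4 macrophage genes that were higher in transgenic than in wild-type muscle and lower in transgenic mdx than in mdx.

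A further set is given because the transgene difference in mdx muscle differed from that of AAV-Galgt2 against PBS. Strain again differed in the first comparison only, and the comparisons lie in different array sets. The gap was 6.99 for Usp17la, 6.83 for Dsp, 5.91 for Lce1f, 5.10 for Gja3, 4.87 for D13Ertd608e, 4.74 for Muc15, 4.73 for AF067061 and 4.52 for BB557941. It was -5.03 for Tlcd3b and -4.65 for Gpnmb. These are the 10 widest of 380 gaps called.

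Probe sets without a single gene symbol entered no result above. Among 10092 of them, 200 (1.98%) were called in transgenic mdx against mdx, 105 higher and 95 lower.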

How the results depend on the processing

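The comparison called 1107 genes. It called 643 on the first array set alone, of which 591 were among the 1107, and 139 on the 4 compared arrays alone, of which 134 were. Replicate numbers do not pair the samples by the labels, and the deviations of mdx 2 and transgenic mdx 2 correlated at r = -0.088. Over all pairs of groups in the first array set this correlation ran from -0.439 to 0.542. With the replicate block over both array sets 677 genes were called, 639 of them shared. Leaving out 1 array gave 311 to 1290 calls. Other scalings, log2(value + 16), the filter on dim genes, the mean of all probe sets and eBayes with trend and robust gave between 1084 and 1295.

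The gap to muscle with normal dystrophin gave 8 genes, 0 with the replicate block, 22 at equal array medians, 5 on log2(value + 16), 5 with the mean of all probe sets, 20 with trend and robust and 0 to 142 with 1 array left out. The gap to AAV-Galgt2 gave 380 genes, 123 with the replicate block, 651 at equal array medians and 41 to 1074 with 1 array left out. The AAV-Galgt2 and PBS muscles share mice in an unknown pairing, so the mouse was added as a replicate block in that set, a choice made after seeing the data. It gave 329 gaps for arrays of the same number, whose deviations correlated at r = -0.0467, and 199 for crossed numbers. Equal array medians moved the split of those gaps to 482 more positive and 169 more negative, from 217 and 163.

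On the 4 arrays alone the B4galnt2 difference of 7.49 and the Dmd difference of 1.54 no longer passed, and with the mean of all probe sets Dmd gave 0.94 and did not pass. With 1 array left out they ranged from 5.53 to 9.45 and from 1.34 to 1.73. The median of the desmosome and skin list was 1.62 without dim genes, and that of the endothelium list -0.95 after quantile scaling, -0.85 on log2(value + 16) and -0.82 with the mean of all probe sets. With 1 array left out list medians ranged from -1.22 to -0.54 for the cell cycle, 0.54 to 0.95 for desmosome and skin, -1.02 to -0.86 for endothelium and -1.04 to -0.80 for general macrophages. Among the named genes, Cd3d changed sign when 1 array was left out (-0.0655 without mdx 2, and up to 1.77 without mdx 1). Of the 40 list medians 14 did so. These were calcium handling (-0.20 without mdx 1 to 0.0322 without mdx 2), myogenic genes (-0.27 without transgenic mdx 1 to 0.20 without transgenic mdx 2), lymphocytes (-0.69 to 0.74), the dystrophin-associated complex (-0.14 to 0.08), neuromuscular junction (-0.17 to 0.10), costamere (-0.06 to 0.30), membrane repair (-0.33 to 0.18), fatty acid use (-0.16 to 0.01), adipocyte (-0.23 to 0.23), Schwann cell (-0.44 to 0.25), tendon (-0.01 to 0.25), immediate early and heat shock (-0.07 to 0.58), circadian (-0.11 to 0.01) and insulin-like growth factors (-0.17 to 0.05). Under the other settings 6 of these 14 changed sign, the lymphocyte median without dim genes and those of the dystrophin-associated complex, membrane repair, adipocyte, tendon and insulin-like growth factors with the mean of all probe sets, the last also under both other scalings. For these shifts the cause was not tested. Fits that left out an array also had fewer samples.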

Other observations

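Further gene lists that could bear on the makeup of the samples held no call. The 9 adipocyte genes had a median of 0.11, and Retn, the adipocyte hormone resistin, was read at 503 and 714 in mdx and at 1212 and 1448 in transgenic mdx, a difference of 1.15 ± 0.47 (adjusted p = 0.191 by limma). Plin4, a lipid droplet protein, differed by -0.42. The 6 Schwann cell genes had a median of -0.15, with the myelin proteins Pmp22 at -0.36 and Mag at -0.23. Among 4 red blood cell genes at a median of -0.32, Alas2, the erythroid haem synthesis enzyme, differed by -1.37 ± 0.39 (adjusted p = 0.0648) and Slc4a1, the anion exchanger, by -0.57, with 1 transgenic array with normal dystrophin at 399 and the other at 28.9. The 14 circadian genes had a median of -0.08, with Nr1d1, a repressor of the clock, at -0.87 (adjusted p = 0.0979) and Clock at 0.55. The 9 ribosomal protein genes had a median of -0.12, with Rps14 at -0.41 and Rps3 at -0.29.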
